A study of Mus musculus with 6 samples.

Results

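The genes described here encode the enzymes that cut the extracellular matrix and cell surface proteins of the heart, and the inhibitors that hold them in check. They are the matrix metalloproteases (Mmp), the tissue inhibitors of metalloproteases (Timp), the membrane-bound ADAM proteases (Adam), the secreted ADAMTS proteases (Adamts) and the ADAMTS-like proteins (Adamtsl). Members were taken by symbol, as every probe set named Mmp, Timp, Adam, Adamts or Adamtsl followed by a digit. That gave 83 of the 20239 genes on the array table that carried 1 symbol, made up of 22 Mmp, 4 Timp, 34 Adam, 18 Adamts and 5 Adamtsl genes. Adamts2 and Mmp15 were not analysed here.

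Ventricle RNA came from male mice of the 129/Sv background aged 3.5 weeks. A group of 3 mice was labelled Hspa4-/-, lacking the Hsp110-type chaperone Hspa4, and 3 Hspa4+/+ mice served as the wild type. The labels name no treatment, operation, Cre line or promoter, and they do not say which part of Hspa4 was deleted. Each of the 6 samples was run on 1 Affymetrix Mouse Gene 1.0 ST array, and expression is given on the deposited log2 scale, where a difference of 1 is a 2-fold difference. The comparison asks which of these genes differ in the young heart when Hspa4 is absent.

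Metalloproteases of these families hold a zinc ion at the active site and are made as inactive precursors that furin-type proteases or other metalloproteases activate. MMPs mainly cut collagens, fibronectin and other matrix proteins, ADAMs release growth factors, cytokines and receptors from the cell surface, and ADAMTS enzymes cut proteoglycans and process procollagen. ADAMTS-like proteins have the ancillary domains of the ADAMTS family but no protease domain, and several bind fibrillin microfibrils. The TIMPs bind the active sites and block them, and in the heart the balance of proteases and TIMPs is known for its part in matrix turnover.

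The array labelled Hspa4-/- replicate 1 went against its label. Hspa4 read 9.33 there, against 6.63 and 6.75 on replicates 2 and 3 of that label and 9.74, 9.50 and 9.48 on the wild-type arrays. Xist, the RNA of the inactive X chromosome in female cells, read 7.68 on that array and between 5.51 and 5.69 on the other 5, although all mice are labelled male. The comparison was therefore run on all 6 arrays and on the 5 arrays without it, and the direction of any 6-array value includes that array. Of the cardiomyocyte markers, 5 of 5 stood above the low-signal line described next, and 0 of 5 neutrophil markers did. So did 6 of 6 fibroblast, 5 of 5 endothelial, 6 of 6 macrophage, 4 of 4 epicardial and 3 of 4 smooth muscle markers. Standing above the line therefore does not single out heart muscle. The cardiomyocyte markers do not tell ventricle from atrium, and 1 of 3 atrial markers also stood above the line.

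Genes of low signal were set apart with the odorant receptors, a family not known for expression in the ventricle. The line was the 95th percentile of the mean levels of 1098 odorant receptor genes, at 6.19, and 12144 of the 20239 genes lay above it. Of the 83 genes, 38 lay above the line and 45 at or under it. Mmp10 and Mmp23 were the members just above it, both at 6.19, and Adam34l (6.17) and Adamts4 (6.16) were just under it. For 3 genes, Mmp10, Mmp23 and Adamts4, the means of the groups fell on different sides of the line. Levels of different genes come from different probes and are not set against each other.

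No member passed the threshold of 0.05 in either form of the comparison (limma, Benjamini-Hochberg over 20239 genes). The background is 0.00% of all genes called on 6 arrays and 0.440%, or 89 genes, on 5. All 89 lay above the low-signal line, 0.733% of the genes there. The lowest adjusted p of any member was 0.210 on 6 arrays and 0.0586 on 5, in each case that of Adamtsl4 (limma). At an unadjusted p under 0.05, limma gave 5 members higher and 4 lower on 6 arrays. That is 9 of 83 or 10.8%, beside 11.2% of all genes (5.64% higher and 5.53% lower). On 5 arrays limma gave 7 higher and 6 lower, which is 13 of 83 or 15.7%, beside 14.9% of all genes (8.55% higher and 6.36% lower). The 83 genes thus reached that level about as often as genes at large. Of the 38 above the low-signal line, 8 did on 6 arrays (21.1%) and 10 on 5 (26.3%), beside 16.4% and 21.0% of all genes above it. The 8 were 5 higher and 3 lower, beside 8.99% and 7.45% of all genes above the line, and of the 10 on 5 arrays 7 were higher and 3 lower, beside 13.7% and 7.25%. The median log2 difference of the 83 was −0.008 on 6 arrays and −0.019 on 5, beside −0.009 and −0.018 over all genes.

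The 6-array count of 9 members rested on single arrays. It was 6 without Hspa4-/- replicate 2 and 6 without replicate 3. It was 3, 17 and 4 without wild-type replicates 1, 2 and 3 in turn. The 5-array count of 13 became 7, 18 and 7 when wild-type replicates 1, 2 and 3 were left out in turn. The share of all genes moved with these counts. On 6 arrays it was 8.46% and 8.81% without Hspa4-/- replicates 2 and 3 in turn. Without wild-type replicates 1, 2 and 3 in turn it was 6.17%, 14.8% and 7.63% on 6 arrays. On 5 arrays it was 10.4%, 20.4% and 10.7% without those same wild-type arrays in turn. With 3 arrays a group, the number of arrays limits the precision of every value below. A 5-array value given without Hspa4-/- replicate 2 or 3 compares 1 Hspa4-/- array with 3 wild-type arrays.

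**Figure D1:**
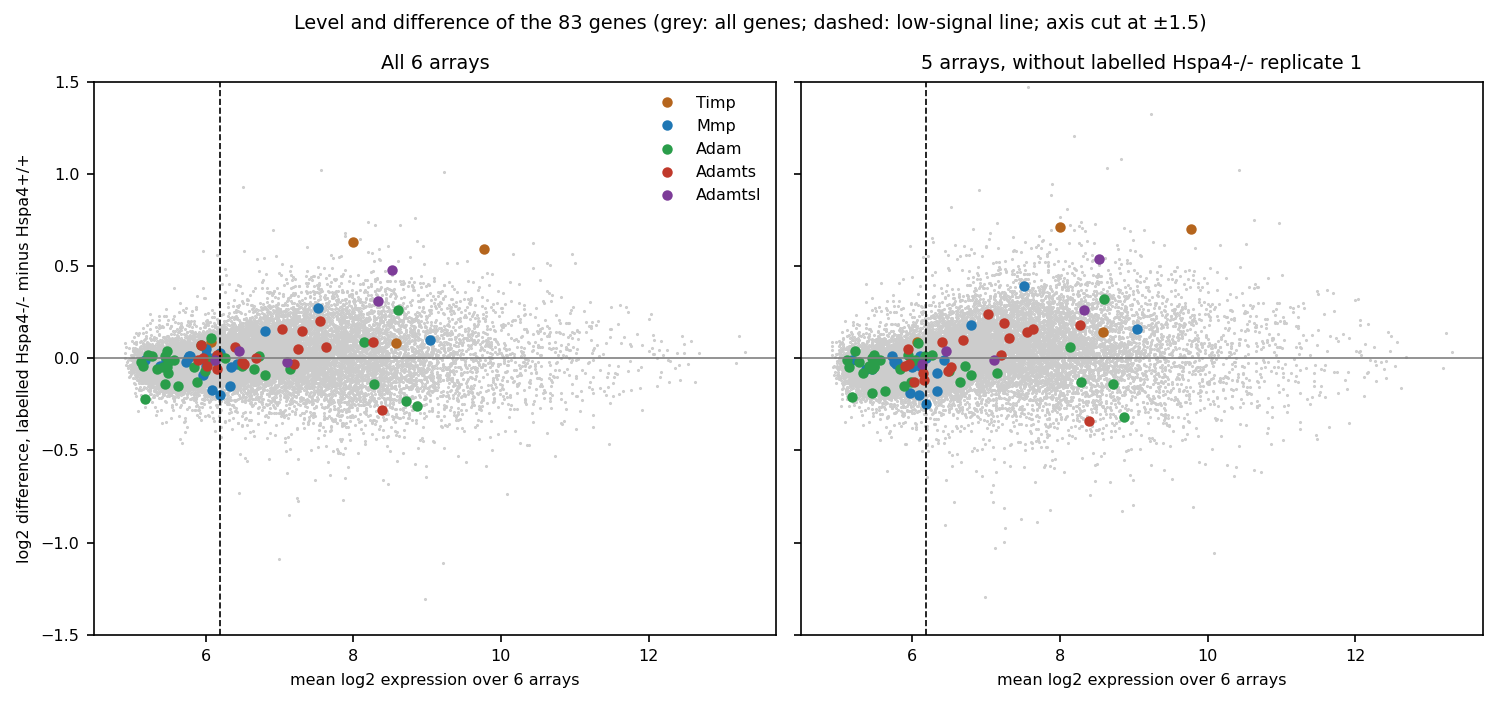
Mean log2 expression of each gene over 6 arrays (x axis) against its log2 difference, labelled Hspa4-/- minus Hspa4+/+ (y axis), for all 6 arrays on the left and the 5 arrays without Hspa4-/- replicate 1 on the right. Grey points are all genes, coloured points the 83 members and the dashed line the low-signal line at 6.19, and most members lie within the grey cloud while Timp3, Timp4 and Adamtsl4 lie near its upper edge.

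Among the inhibitors, Timp3 and Timp4 had the largest differences of the 83 genes, and neither passed. TIMP3 is the inhibitor that binds to the matrix itself and also blocks ADAM17 and the aggrecan-cutting ADAMTS enzymes, and TIMP4 is known for its high expression in the heart. Timp3 read 9.83, 10.56 and 9.79 on the 3 arrays labelled Hspa4-/-, against 9.34, 9.77 and 9.31 on the wild-type arrays. The groups did not overlap, but the lowest Hspa4-/- array stood only just above the highest wild-type array. Its mean was 10.06 ± 0.43 on the Hspa4-/- arrays and 9.47 ± 0.26 in wild type (SD, n = 3 each). The log2 difference was 0.59 (SE 0.20), or 1.5-fold, on 6 arrays (limma, adjusted p = 0.312) and 0.70 (SE 0.21) on 5 (limma, adjusted p = 0.182). In bulk tissue a different number of cells of a type and a different amount of RNA per cell cannot be told apart, here or in the results that follow.

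Timp4 followed the same order over the arrays of each group. It read 8.14, 8.89 and 7.91 on the arrays labelled Hspa4-/-, against 7.57, 8.03 and 7.46 in wild type, and here the groups overlapped because wild-type replicate 2 exceeded Hspa4-/- replicate 3. The means were 8.31 ± 0.51 and 7.69 ± 0.31 (SD, n = 3 each), with a log2 difference of 0.63 (SE 0.23) on 6 arrays (limma, adjusted p = 0.357) and 0.71 (SE 0.26) on 5 (limma, adjusted p = 0.254). For both genes the replicate 2 array was the highest of its group. Without Hspa4-/- replicate 2 the 6-array difference was 0.34 for each gene, and on 5 arrays it was 0.32 for Timp3 and 0.23 for Timp4. Without Hspa4-/- replicate 3 the 5-array difference was 1.09 for Timp3 and 1.20 for Timp4. Each of these 5-array values rests on 1 Hspa4-/- array, and their size depended on which of those arrays was kept.

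The summed log2 level of the 3 atrial markers Myl7, Sln and Myl4 was also highest on the replicate 2 array of each group. It was 19.41, 19.99 and 19.30 on the Hspa4-/- arrays and 18.97, 19.53 and 18.98 in wild type. Of the 3 markers, 1 lay above the low-signal line, Myl4, which read 7.39, 7.72 and 7.35 on the Hspa4-/- arrays and 7.21, 7.59 and 6.97 in wild type. Myl7, at low signal, was also highest on replicate 2 of each group. Sln, at low signal too, read 5.86, 5.87 and 5.78 on the Hspa4-/- arrays and 5.77, 5.76 and 5.90 in wild type, where replicate 2 was the lowest. The part of atrial tissue in the Timp3 and Timp4 values was not tested.

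Timp2 works with MMP14 at the cell surface to activate the precursor of MMP2, and Timp1 is the inducible, secreted member of the family. Timp2 read 8.50, 8.63 and 8.74 on the Hspa4-/- arrays, against 8.58, 8.55 and 8.49 in wild type. Its difference was 0.08 (SE 0.08) on 6 arrays (limma, adjusted p = 0.762), and 0.14 (SE 0.07) on 5, where the groups did not overlap (limma, adjusted p = 0.400). Timp1 was at low signal, with 6.12 ± 0.02 on the Hspa4-/- arrays and 6.03 ± 0.18 in wild type (SD, n = 3 each). Its difference was 0.09 on either set of arrays (limma, adjusted p = 0.779 and 0.727).

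The annotation places Timp1 inside the synapsin gene Syn1, Timp3 inside Syn3 and Timp4 inside Syn2. Syn3 differed less than Timp3 and Syn2 less than Timp4 on 6 arrays, but Syn1 not less than Timp1. Syn3 read 6.19, 6.41 and 6.21 on the Hspa4-/- arrays and 6.15, 6.25 and 6.35 in wild type, with a difference of 0.02 on 6 arrays and 0.06 on 5. Syn2 differed by 0.12 and 0.11 and Syn1 by 0.12 and 0.08, with 6-array adjusted p-values of 0.645 and 0.640 (limma). Syn1 was at low signal, and the 6-array means of Syn2 (6.35) and Syn3 (6.26) lay near the line. At such levels a difference in the synapsin transcripts may not be detectable.

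The promoters of Timp3 and Timp4 are printed because these genes gave the largest differences and kept the same order over the arrays of each group. Those of Adamtsl4, Adam17 and Mmp10 are examples of genes whose groups did not overlap. Each holds 250 bases before and 50 after the gene's start, 5′ to 3′ on the gene's strand, from RefSeq (GRCm38.p6), with the motifs found by the search in capitals.
Timp3, chr10:86300162-86300461, plus strand: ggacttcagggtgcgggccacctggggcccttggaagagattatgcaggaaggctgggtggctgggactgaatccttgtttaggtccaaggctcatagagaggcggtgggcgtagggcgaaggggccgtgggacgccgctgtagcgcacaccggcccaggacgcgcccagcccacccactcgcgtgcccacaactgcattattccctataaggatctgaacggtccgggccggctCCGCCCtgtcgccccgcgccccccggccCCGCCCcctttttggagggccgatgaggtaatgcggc
Timp4, chr6:115252156-115252455, minus strand: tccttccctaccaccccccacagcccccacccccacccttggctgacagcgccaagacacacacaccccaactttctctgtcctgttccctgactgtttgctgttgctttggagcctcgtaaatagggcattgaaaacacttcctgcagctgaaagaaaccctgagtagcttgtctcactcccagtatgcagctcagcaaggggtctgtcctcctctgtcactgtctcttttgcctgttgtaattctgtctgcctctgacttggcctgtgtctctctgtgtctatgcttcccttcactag
Adamtsl4, chr3:95687868-95688167, minus strand: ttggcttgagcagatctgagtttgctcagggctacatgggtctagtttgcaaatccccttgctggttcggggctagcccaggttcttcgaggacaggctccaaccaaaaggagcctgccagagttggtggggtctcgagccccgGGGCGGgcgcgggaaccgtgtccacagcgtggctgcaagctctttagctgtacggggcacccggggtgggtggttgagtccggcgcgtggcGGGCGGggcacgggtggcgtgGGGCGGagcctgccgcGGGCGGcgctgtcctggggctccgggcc
Adam17, chr12:21373583-21373882, minus strand: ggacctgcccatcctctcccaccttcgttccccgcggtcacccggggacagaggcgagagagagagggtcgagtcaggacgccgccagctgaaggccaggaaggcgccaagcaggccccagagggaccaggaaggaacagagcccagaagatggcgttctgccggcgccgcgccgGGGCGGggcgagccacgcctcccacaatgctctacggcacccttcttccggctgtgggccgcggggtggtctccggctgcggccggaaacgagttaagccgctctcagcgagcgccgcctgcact
Mmp10, chr9:7502092-7502391, plus strand: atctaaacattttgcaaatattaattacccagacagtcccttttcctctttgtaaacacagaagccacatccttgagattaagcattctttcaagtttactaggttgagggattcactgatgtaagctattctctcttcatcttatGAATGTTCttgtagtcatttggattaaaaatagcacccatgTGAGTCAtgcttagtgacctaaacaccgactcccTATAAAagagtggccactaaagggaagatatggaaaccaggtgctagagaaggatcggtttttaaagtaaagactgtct

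The search covered both strands for the TATA box TATAAA, the GC box GGGCGG, the AP-1 site TGANTCA, the heat shock element core GAANNTTC and the TEAD site GGAATG. Timp3 held 2 GC boxes, Adamtsl4 held 4 and Adam17 held 1, and Timp4 held none of the 5 motifs in this window. Mmp10 held 1 TATA box, 1 AP-1 site and 1 heat shock element core, which do not overlap each other. RefSeq promoters were found for 52 of the 83 genes, 57 windows in all. Of these, 28.1% held a TATA box, beside 13.6% of all 32851 promoter windows of that length, and 22.8% an AP-1 site, beside 7.81%. The GC box was in 43.9% beside 35.7%, the heat shock element core in 7.02% beside 7.86% and the TEAD site in 7.02% beside 14.7%. Members above the low-signal line had 30 of the windows, of which 4 held a TATA box and 3 an AP-1 site. The GC box was in 18 of these 30, the heat shock element core in 3 and the TEAD site in 2. Mmp1a, Mmp1b, Mmp3, Mmp7, Mmp10, Mmp12, Mmp13 and Mmp20, which are 8 of a run of 10 Mmp genes on chromosome 9, held both a TATA box and an AP-1 site. These matches are descriptions of the letters and not evidence of binding.

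**Figure D2:**
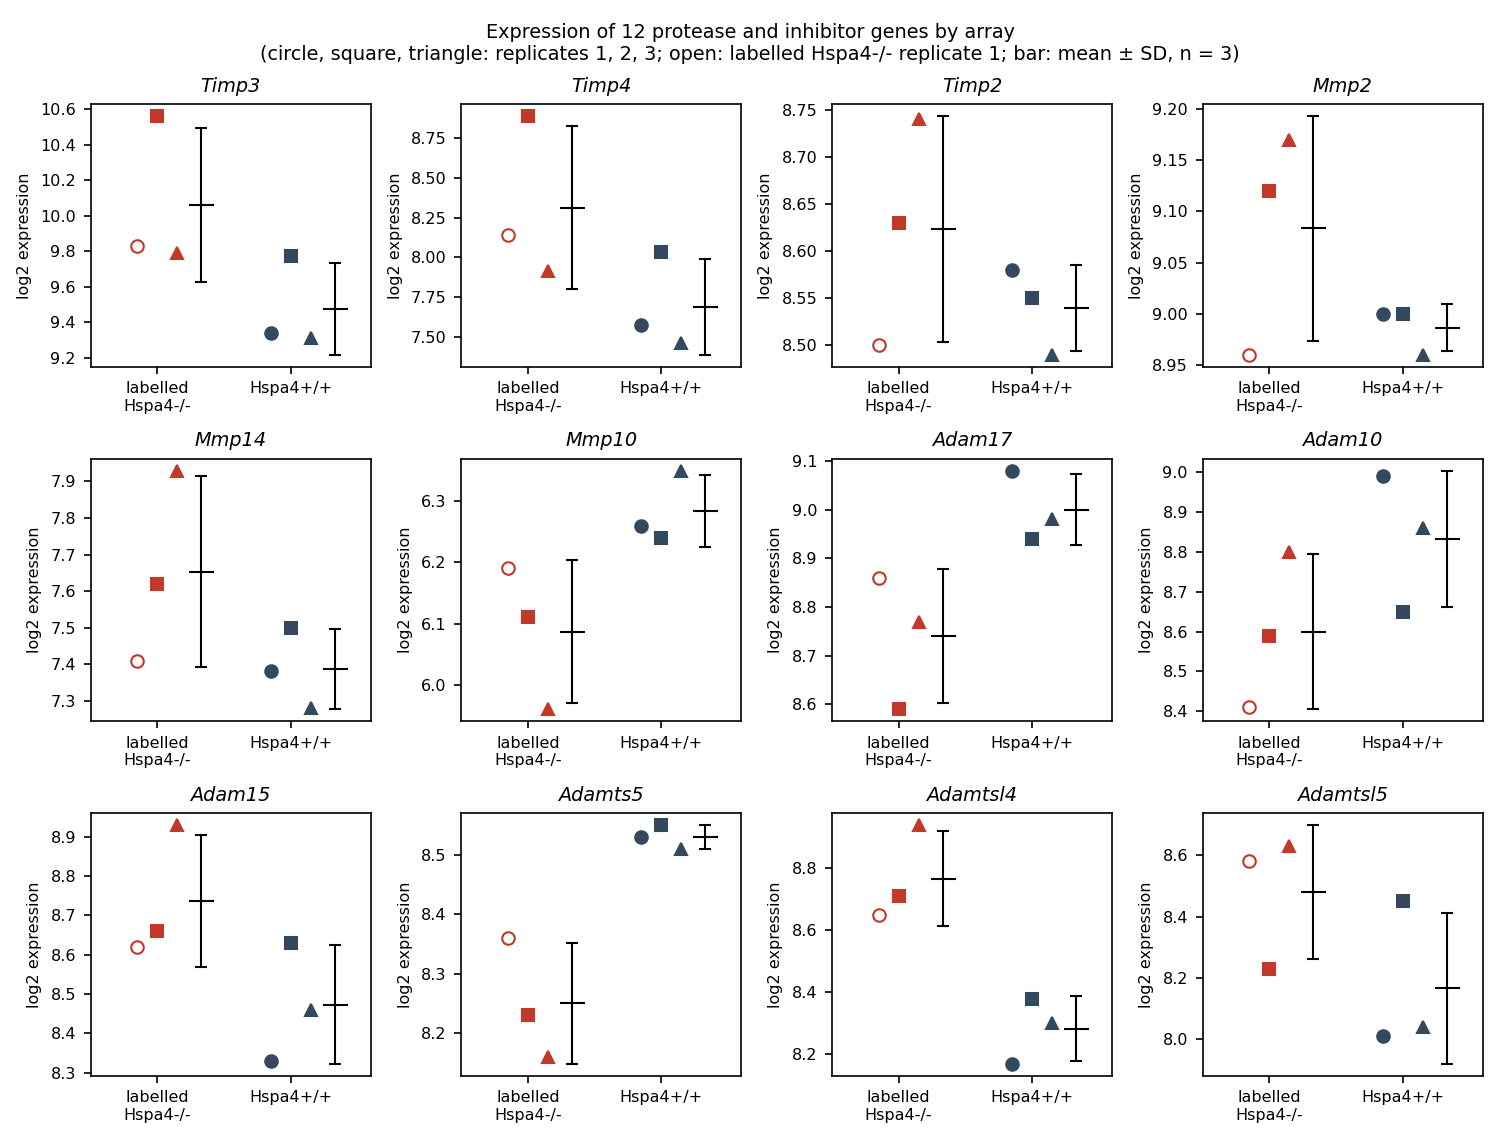
Log2 expression (y axis, scaled for each gene) of 12 genes on the 3 arrays labelled Hspa4-/- (left, red) and the 3 Hspa4+/+ arrays (right, dark), with circles, squares and triangles for replicates 1, 2 and 3 and bars for mean ± SD. The open circle is Hspa4-/- replicate 1, and the groups separate for Timp3, Mmp10, Adam17, Adamts5 and Adamtsl4 but not for the other 7 genes.

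Among the matrix metalloproteases above the line, Mmp14 was highest on the 2 Hspa4-/- arrays that read low for Hspa4. Mmp14 encodes the membrane-type protease MT1-MMP, which cuts fibrillar collagen and activates MMP2. It read 7.41, 7.62 and 7.93 on the Hspa4-/- arrays, against 7.38, 7.50 and 7.28 in wild type. Replicate 1 of the Hspa4-/- label lay within the wild-type range and the other arrays of that label above it. The log2 difference was 0.27 (SE 0.12) on 6 arrays (limma, adjusted p = 0.453) and 0.39 (SE 0.11) on 5 (limma, adjusted p = 0.148). Without Hspa4-/- replicate 3 these became 0.13 and 0.23, and without Hspa4-/- replicate 2 the 5-array value was 0.54.

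Mmp2, the gelatinase that MMP14 activates, read 8.96, 9.12 and 9.17 on the Hspa4-/- arrays, against 9.0, 9.0 and 8.96 in wild type. The wild-type arrays were close together, with an SD of 0.02, and Hspa4-/- replicate 1 was among them. Its difference was 0.10 (SE 0.07) on 6 arrays (limma, adjusted p = 0.687) and 0.16 (SE 0.07) on 5 (limma, adjusted p = 0.320), or 1.12-fold on 5 arrays. Without Hspa4-/- replicate 3 the 6-array difference was 0.06. Mmp2, Mmp14 and Timp2, which act in the same activation step, were all highest on Hspa4-/- replicate 3. The summed log2 level of 6 fibroblast markers, all above the low-signal line, was highest on that array too. It was 50.65, 50.85 and 51.97 on the Hspa4-/- arrays and between 50.58 and 51.05 in wild type. Tcf21, Col1a1 and Col1a2 were highest on Hspa4-/- replicate 3, and Pdgfra, Lum and Dcn were not. The part of the fibroblast sum in these values was not tested.

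Mmp10, stromelysin 2, went the other way at the edge of detection. It read 6.19, 6.11 and 5.96 on the Hspa4-/- arrays, against 6.26, 6.24 and 6.35 in wild type, with no overlap. The difference was −0.20 (SE 0.08) on 6 arrays (limma, adjusted p = 0.384) and −0.25 (SE 0.08) on 5 (limma, adjusted p = 0.196). Its wild-type mean, 6.28 ± 0.06, lay above the low-signal line and its Hspa4-/- mean, 6.09 ± 0.11, below it (SD, n = 3 each). The other members above the line were Mmp11, Mmp16, Mmp23, Mmp28 and Mmp7, with 6-array differences from −0.15 to 0.15.

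Mmp10 belongs to a run of 10 neighbouring Mmp genes on chromosome 9. They are Mmp13, Mmp12, Mmp1b, Mmp3, Mmp1a, Mmp10, Mmp8, Mmp27, Mmp20 and Mmp7, and only Mmp10 and Mmp7 of them reached the line. In either form, 9 of the 10 had a difference below 0, with a median of −0.03 on 6 arrays and −0.06 on 5. Of all genes at or under the line, 67.7% differed by less than 0 on 6 arrays and 76.4% on 5, with medians of −0.030 and −0.052. Whether the run differs from them was not tested.

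Among the ADAM proteases, Adam17 was lower and Adam15 higher on the Hspa4-/- arrays, and neither passed. ADAM17 is the sheddase of tumour necrosis factor and of several ligands of the epidermal growth factor receptor. Adam17 read 8.86, 8.59 and 8.77 on the Hspa4-/- arrays, against 9.08, 8.94 and 8.98 in wild type. Every array labelled Hspa4-/- lay below every wild-type array. That includes replicate 1, whose Hspa4 level went against its label. The means were 8.74 ± 0.14 and 9.0 ± 0.07 (SD, n = 3 each). The difference was −0.26 (SE 0.08) on 6 arrays (limma, adjusted p = 0.292) and −0.32 (SE 0.08), or 1.25-fold lower, on 5 (limma, adjusted p = 0.132).

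Adam10, the close relative of Adam17 that cuts Notch receptors, was low mainly on the array in doubt. It read 8.41, 8.59 and 8.80 on the Hspa4-/- arrays, against 8.99, 8.65 and 8.86 in wild type. The groups overlapped, and the difference of −0.23 (SE 0.11) on 6 arrays became −0.14 (SE 0.11) on 5 (limma, adjusted p = 0.490 and 0.602). Adam9, another broadly expressed member, is named after its values were seen. It read 8.19, 8.23 and 8.21 on the Hspa4-/- arrays, against 8.44, 8.32 and 8.29 in wild type. Its groups did not overlap, with a difference of −0.14 (SE 0.07) on 6 arrays and −0.13 (SE 0.07) on 5 (limma, adjusted p = 0.481 and 0.469).

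Adam15, which is known from endothelial cells and carries an integrin-binding disintegrin domain, read 8.62, 8.66 and 8.93 on the Hspa4-/- arrays, against 8.33, 8.63 and 8.46 in wild type. Wild-type replicate 2 stood just above Hspa4-/- replicate 1, so the groups overlapped on 6 arrays but not on 5. The difference was 0.26 (SE 0.10) on 6 arrays (limma, adjusted p = 0.390) and 0.32 (SE 0.11) on 5 (limma, adjusted p = 0.229). Without Hspa4-/- replicate 3 the values were 0.17 and 0.19. The summed level of 5 endothelial markers, all above the line, ran from 45.98 to 47.28 on the Hspa4-/- arrays and from 46.33 to 46.70 in wild type, and its highest value was on Hspa4-/- replicate 3. Pecam1, Cdh5 and Kdr were highest on Hspa4-/- replicate 3, and Tie1 and Tek were not. The part of the endothelial sum in the Adam15 values was not tested.

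Adam19, needed in mice for normal heart valves and septa, read 8.23, 7.89 and 8.44 on the Hspa4-/- arrays, against 8.06, 8.25 and 8.0 in wild type, and the groups overlapped fully. Its difference was 0.09 (SE 0.13) on 6 arrays and 0.06 (SE 0.15) on 5 (limma, adjusted p = 0.877 and 0.881). The other ADAM genes above the line were Adam1a, Adam4, Adam11, Adam22, Adam23 and Adam33, of which Adam11, Adam22 and Adam23 encode neural proteins that lack protease activity. Their 6-array differences lay between −0.09 and 0.01.

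**Figure D3:**
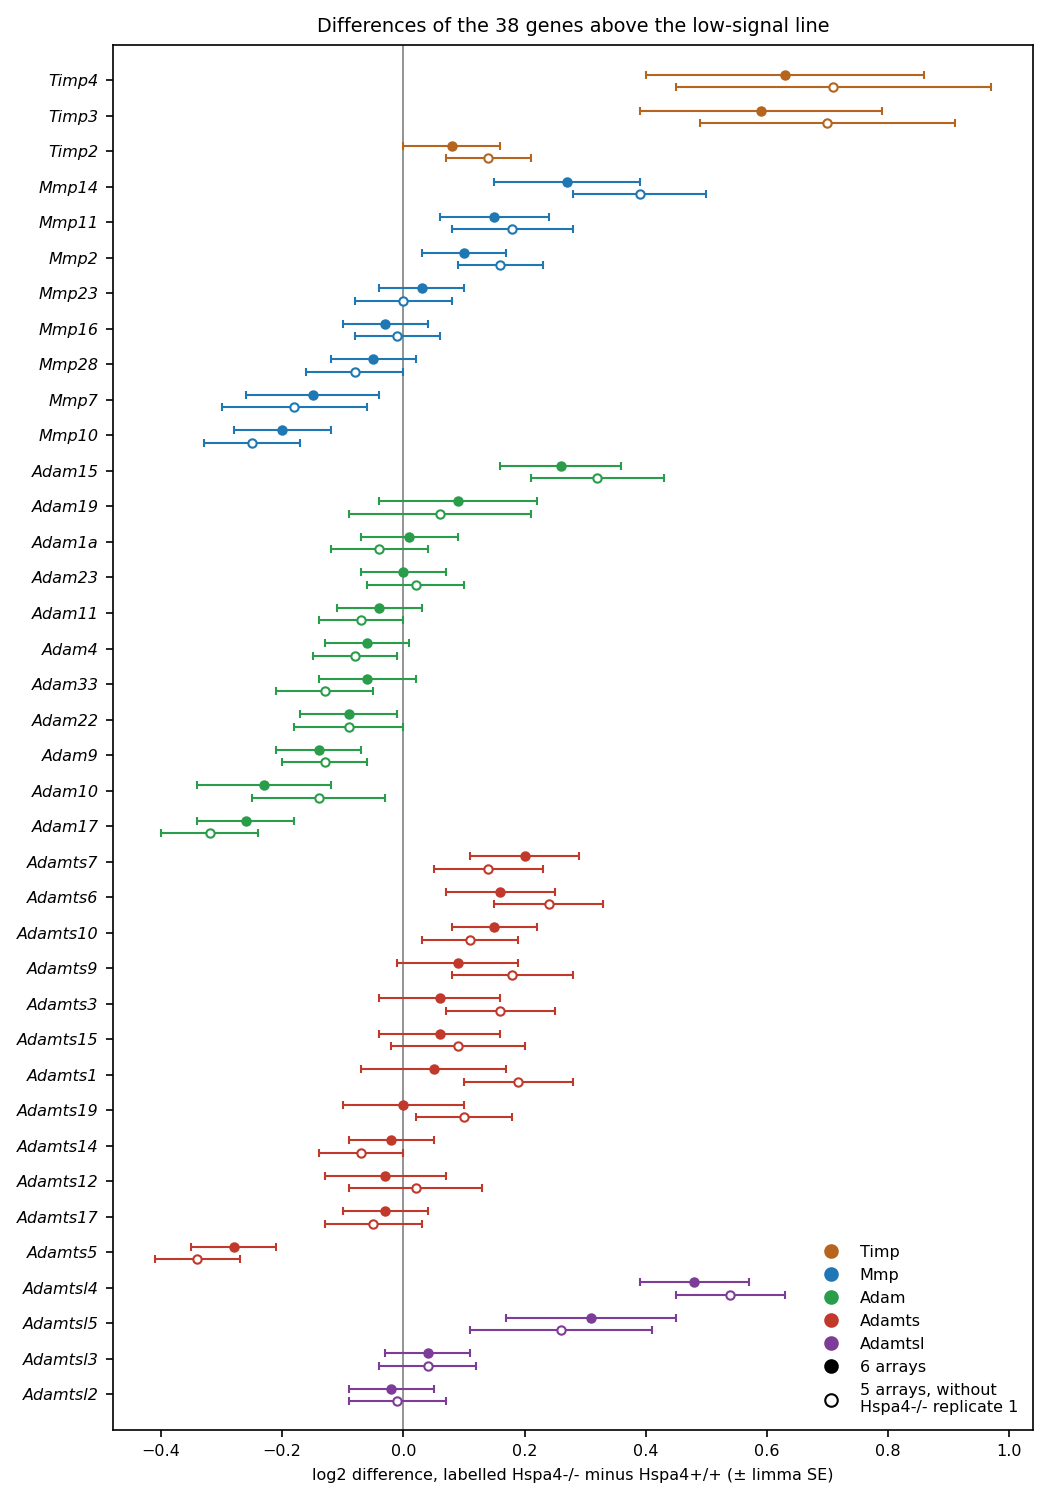
Log2 difference, labelled Hspa4-/- minus Hspa4+/+ (x axis, with limma SE bars), of the 38 genes above the low-signal line (y axis), coloured by family, for 6 arrays (filled) and for the 5 arrays without Hspa4-/- replicate 1 (open). Timp4, Timp3 and Adamtsl4 lie furthest to the right and Adamts5 and Adam17 furthest to the left, and none passed the threshold.

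Adamts5 gave the clearest lower reading of the secreted proteases. ADAMTS5 is an aggrecanase that also cuts versican, a proteoglycan of the developing heart. Adamts5 read 8.36, 8.23 and 8.16 on the Hspa4-/- arrays, against 8.53, 8.55 and 8.51 in wild type. All 3 Hspa4-/- arrays lay below a tight wild-type group, with means of 8.25 ± 0.10 and 8.53 ± 0.02 (SD, n = 3 each). The difference was −0.28 (SE 0.07) on 6 arrays (limma, adjusted p = 0.232) and −0.34 (SE 0.07), or 1.26-fold lower, on 5 (limma, adjusted p = 0.0765). Array weights, which give arrays of larger residual spread less influence, let it pass on 5 arrays (limma, adjusted p = 0.0456). Over the alternatives that kept 2 Hspa4-/- arrays, its limma adjusted p on 5 arrays ran from 0.0456 to 0.257.

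The values of 3 other aggrecan- or versican-cutting members gave no such separation. Adamts1 read 6.99, 7.33 and 7.52 on the Hspa4-/- arrays, against 7.34, 7.15 and 7.20 in wild type, and its difference was 0.05 (SE 0.12) on 6 arrays and 0.19 (SE 0.09) on 5 (limma, adjusted p = 0.930 and 0.351). Adamts9 read 8.14, 8.28 and 8.54 on the Hspa4-/- arrays, against 8.33, 8.13 and 8.23 in wild type, with differences of 0.09 (SE 0.10) and 0.18 (SE 0.10) (limma, adjusted p = 0.822 and 0.434). For both genes Hspa4-/- replicate 1 was low or within the wild-type range and replicate 3 was the highest array. Adamts4, the other main aggrecanase, was at low signal, with 6.13 ± 0.11 on the Hspa4-/- arrays and 6.19 ± 0.11 in wild type (SD, n = 3 each). Versican itself, Vcan, differed by −0.16 (SE 0.18) on 6 arrays and 0.02 (SE 0.15) on 5.

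Adamts6, a relative of the fibrillin-associated Adamts10, read 6.95, 7.18 and 7.18 on the Hspa4-/- arrays, against 6.95, 7.07 and 6.81 in wild type. Its difference was 0.16 (SE 0.09) on 6 arrays and 0.24 (SE 0.09) on 5, where the groups did not overlap (limma, adjusted p = 0.573 and 0.257). Without wild-type replicate 3 the 6-array difference was 0.09. The other members above the line were Adamts3, Adamts7, Adamts10, Adamts12, Adamts14, Adamts15, Adamts17 and Adamts19, with 6-array differences from −0.03 to 0.20. Of all 12 Adamts genes above the line, 7 differed by more than 0 on 6 arrays and 9 on 5.

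Adamtsl4 had the smallest p of all 83 genes. In humans its protein binds fibrillin-1 and its loss displaces the lens of the eye. Adamtsl4 read 8.65, 8.71 and 8.94 on the Hspa4-/- arrays, against 8.17, 8.38 and 8.30 in wild type. Every array labelled Hspa4-/- lay above every wild-type array, and replicate 1 of that label was 0.37 above the wild-type mean. Its Hspa4 level went against the label, so its value cannot be counted as a further replicate of the loss of Hspa4. The means were 8.77 ± 0.15 and 8.28 ± 0.11 (SD, n = 3 each). The difference was 0.48 (SE 0.09), or 1.40-fold, on 6 arrays (limma, adjusted p = 0.210) and 0.54 (SE 0.09), or 1.46-fold, on 5 (limma, adjusted p = 0.0586).

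The call for Adamtsl4 lay so close to the threshold on 5 arrays that the processing decided it. It passed when the lowest 25% or 50% of genes were left out (limma, adjusted p = 0.0450 and 0.0377), with array weights (adjusted p = 0.0336) and without wild-type replicate 2 (adjusted p = 0.0185). It did not pass in the other settings on 5 arrays that kept 2 Hspa4-/- arrays, where the limma adjusted p reached 0.255. On 6 arrays it passed only with array weights (limma, adjusted p = 0.0488). The difference itself stayed between 0.40 and 0.65 in every setting on either set of arrays, and the 0.65 rests on 1 Hspa4-/- array. An exact two-sided permutation test of 3 against 3 arrays cannot go below p = 0.1 for any of these genes.

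Adamtsl5, another fibrillin-associated member, read 8.58, 8.23 and 8.63 on the Hspa4-/- arrays, against 8.01, 8.45 and 8.04 in wild type. The replicate 2 arrays broke the pattern, and the groups overlapped. The difference was 0.31 (SE 0.14) on 6 arrays (limma, adjusted p = 0.439) and 0.26 (SE 0.15) on 5 (limma, adjusted p = 0.471), and it was 0.07 on 5 arrays without Hspa4-/- replicate 3. Adamtsl2, which binds latent TGF-beta binding protein and in humans is mutated in geleophysic dysplasia, differed by −0.02 (SE 0.07) on 6 arrays and −0.01 (SE 0.08) on 5 (limma, adjusted p = 0.949 and 0.976). Adamtsl3 differed by 0.04 in both forms, and Adamtsl1 was at low signal.

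The 45 genes at low signal included proteases that are well known from injured hearts. Mmp9, the gelatinase of neutrophils, read 5.78 ± 0.10 on the Hspa4-/- arrays and 5.77 ± 0.08 in wild type (SD, n = 3 each). Mmp13, a collagenase, read 6.10 ± 0.03 and 6.11 ± 0.06, and the leukocyte gene Adam8 read 6.14 ± 0.06 and 6.02 ± 0.06 (SD, n = 3 each). Adam12, raised in growing and regenerating muscle, read 6.04 ± 0.01 and 6.05 ± 0.03 (SD, n = 3 each). At such levels a difference in transcript may not be detectable on the array, so these values do not show that the genes were unchanged. The neutrophil markers S100a8, S100a9, Ly6g, Ngp and Camp were at low signal as well, with sums of 28.10 to 28.59 on the Hspa4-/- arrays and 28.21 to 28.72 in wild type.

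At low signal, 1 of the 45 genes had an unadjusted p under 0.05 on 6 arrays (2.22%) and 3 on 5 (6.67%), each with a lower mean on the Hspa4-/- arrays (limma). These shares are near those of all genes at or under the line, 3.26% on 6 arrays (0.605% higher and 2.66% lower) and 5.83% on 5 (0.803% higher and 5.03% lower). Mmp12, macrophage elastase, read 6.07, 6.01 and 5.93 on the Hspa4-/- arrays, against 6.18, 6.07 and 6.25 in wild type. The groups did not overlap, and the difference was −0.17 (SE 0.07) on 6 arrays and −0.20 (SE 0.08) on 5 (limma, adjusted p = 0.443 and 0.282). The summed level of the 6 macrophage markers, all above the line, was likewise lower on every Hspa4-/- array, at 43.25 to 43.73 against 44.16 to 44.51 in wild type. Csf1r, Adgre1, Cd68 and Cd163 were lower without overlap. C1qa and C1qb overlapped, with differences of −0.02 and 0.02 on 6 arrays and 0.04 and 0.08 on 5. Of the 6 markers 0 passed on either set of arrays, and their part in the Mmp12 value was not tested. Mmp3, stromelysin 1, read 6.11, 5.91 and 5.74 on the Hspa4-/- arrays, against 5.97, 5.99 and 6.08 in wild type, with a difference of −0.09 on 6 arrays and −0.19 on 5 (limma, adjusted p = 0.787 and 0.303). Without Hspa4-/- replicate 3 its 6-array difference was 0.00 to 2 decimals and its 5-array difference −0.11. Adam7, known from the epididymis, differed by −0.14 on 6 arrays and −0.19 on 5 (limma, adjusted p = 0.521 and 0.300).

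Most of the remaining low-signal genes are ADAMs of the testis and sperm. The low-signal ADAMs were Adam1b, Adam2, Adam3, Adam5, Adam6a, Adam6b, Adam7, Adam8, Adam12, Adam18, Adam20, Adam21, Adam24, Adam25, Adam26a, Adam26b, Adam28, Adam29, Adam30, Adam32, Adam34, Adam34l and Adam39, 23 of the 34. Several are near-identical copies whose probes may read each other. Their 6-array differences lay between −0.22 and 0.11, and 0 of the 23 had an unadjusted p under 0.05 on 6 arrays (limma). The other low-signal genes were Mmp1a, Mmp1b, Mmp8, Mmp17, Mmp19, Mmp20, Mmp21, Mmp24, Mmp25, Mmp27, Adamts8, Adamts13, Adamts16, Adamts18 and Adamts20.

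Of the 45 low-signal members, 15 differed by more than 0 on 6 arrays and 10 on 5, with median differences of −0.013 and −0.035. All genes at or under the line had median differences of −0.030 and −0.052, and 67.7% and 76.4% of them differed by less than 0. The median level of the 45 members overlapped between the groups on either set of arrays. That of all genes at or under the line overlapped on 6 arrays. On 5 it was lower on Hspa4-/- replicates 2 and 3 than on every wild-type array. The median level of the 45 genes was 5.85, 5.81 and 5.75 on the Hspa4-/- arrays, against 5.74, 5.85 and 5.86 in wild type. That of all genes at or under the line was 5.76, 5.71 and 5.68 on the Hspa4-/- arrays, against 5.74, 5.72 and 5.79 in wild type. The median of the odorant receptor genes was 5.53, 5.47 and 5.44 on the Hspa4-/- arrays, against 5.55, 5.51 and 5.58 in wild type. The part of this shift in the differences of low-signal genes was not tested.

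Of the 83 genes, 13 had groups without overlap on 6 arrays, or 15.7% beside 15.1% of all genes. They were 4 higher and 9 lower, beside 6.08% and 9.07% of all genes. On 5 arrays, where a split is easier to reach, there were 27, or 32.5% beside 33.3% of all genes. They were 9 higher and 18 lower, beside 14.4% and 18.9% of all genes. Above the line the count was 6 of 38 on 6 arrays (15.8%) and 14 of 38 on 5 (36.8%), beside 18.0% and 36.2% of all genes above it. These 6 were Timp3 and Adamtsl4, which were higher, and Adam17, Adam9, Adamts5 and Mmp10, which were lower. By this measure too the members were close to genes at large.

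The partners of these proteases were followed in a list of 55 genes chosen by role, of which 51 were measured and 40 lay above the line. None passed over all genes in either form (limma). At an unadjusted p under 0.05, 10 were higher and 2 lower on 6 arrays, and 10 higher and 1 lower on 5. The 10 higher are 19.6% of the 51, beside 5.64% of all genes higher on 6 arrays and 8.55% on 5. Of the 40 above the line, 10 were higher on 6 arrays and 10 on 5, beside 8.99% and 13.7% of all genes above it. The list was chosen with earlier results of these data known, so these shares are descriptions. Their median difference was 0.02 on 6 arrays and −0.01 on 5.

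Of the 22 genes for shed substrates and shedding regulators, Erbb2 had the smallest p on 5 arrays and Notch1 on 6. ERBB2 is the co-receptor for neuregulin in heart muscle cells. It read 7.63, 7.79 and 8.13 on the Hspa4-/- arrays, against 7.37, 7.43 and 7.30 in wild type, with no overlap. The difference was 0.49 (SE 0.12) on 6 arrays (limma, adjusted p = 0.221) and 0.60 (SE 0.10) on 5 (limma, adjusted p = 0.0586). Notch1, a receptor that ADAM10 cuts, read 7.94, 7.87 and 7.96 on the Hspa4-/- arrays, against 7.65, 7.62 and 7.55 in wild type. Its difference was 0.32 (SE 0.06) on 6 arrays and 0.31 (SE 0.07) on 5 (limma, adjusted p = 0.210 and 0.101). Tspan5, a tetraspanin that guides ADAM10 to the cell surface, was lower. It read 7.52, 7.24 and 7.25 on the Hspa4-/- arrays against 7.63, 7.64 and 7.54 in wild type. Its differences were −0.27 (SE 0.09) on 6 arrays and −0.36 (SE 0.07) on 5 (limma, adjusted p = 0.293 and 0.0675). The groups overlapped in both forms for the other Tspan genes listed. Tspan14, Tspan15 and Tspan17 differed by 0.12, −0.14 and 0.05 on 6 arrays and by 0.10, −0.18 and −0.02 on 5. Tspan33, at low signal, differed by 0.04 and 0.03.

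The growth factor genes whose products ADAM10 or ADAM17 release are given by role, chosen after their values were seen. So are Rhbdf1, Rhbdf2, Reck, Acan, Vcan, Vwf and the Tspan genes other than Tspan5. On 6 arrays Hbegf differed by −0.13 (SE 0.08), Btc by −0.08, Tgfa by −0.01 and Ereg, at low signal, by −0.17. On 5 arrays the differences were −0.10 for Hbegf, −0.07 for Btc, −0.04 for Tgfa and −0.19 for Ereg, and none passed. Nrg1 was also at low signal, with differences of 0.08 (SE 0.10) and 0.06 (SE 0.11). Rhbdf2, which carries ADAM17 to the cell surface, differed by 0.20 (SE 0.08) on 6 arrays and 0.21 (SE 0.09) on 5 (limma, adjusted p = 0.358 and 0.309). Rhbdf1 differed by 0.11 and 0.13, and its groups overlapped in both forms.

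Among 15 activators, receptors and other inhibitors, the proprotein convertase gene Furin had the smallest p. Furin cuts the prodomain from MMP14, ADAM10, ADAM17 and many ADAMTS enzymes. It read 8.38, 8.49 and 8.52 on the Hspa4-/- arrays, against 8.18, 8.26 and 8.04 in wild type, without overlap. The difference was 0.31 (SE 0.08) on 6 arrays (limma, adjusted p = 0.234) and 0.35 (SE 0.08) on 5 (limma, adjusted p = 0.0999). The membrane-anchored MMP inhibitor gene Reck differed by −0.03 (SE 0.06) on 6 arrays and −0.03 (SE 0.07) on 5.

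Among 14 matrix substrates and partners, the biglycan and fibronectin genes had the smallest p on 5 arrays, and the von Willebrand factor gene Vwf on 6. Bgn read 9.70, 10.02 and 10.18 on the Hspa4-/- arrays, against 9.50, 9.83 and 9.61 in wild type, and Fn1 read 8.71, 8.86 and 9.18, against 8.59, 8.72 and 8.52 in wild type. Their differences on 5 arrays were 0.45 (SE 0.10) and 0.41 (SE 0.11) (limma, adjusted p = 0.0999 and 0.132), and on 6 arrays, where both overlapped, 0.32 (SE 0.13) and 0.31 (SE 0.11). Vwf, whose product ADAMTS13 cuts, read 7.85, 7.75 and 7.90 on the Hspa4-/- arrays, against 7.52, 7.73 and 7.54 in wild type. Its groups did not overlap, and it differed by 0.24 (SE 0.08) on 6 arrays and 0.23 (SE 0.09) on 5 (limma, adjusted p = 0.298 and 0.274). The aggrecan gene Acan was at low signal, at 5.77 ± 0.06 on the Hspa4-/- arrays and 5.79 ± 0.06 in wild type (SD, n = 3 each).

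**Figure D4:**
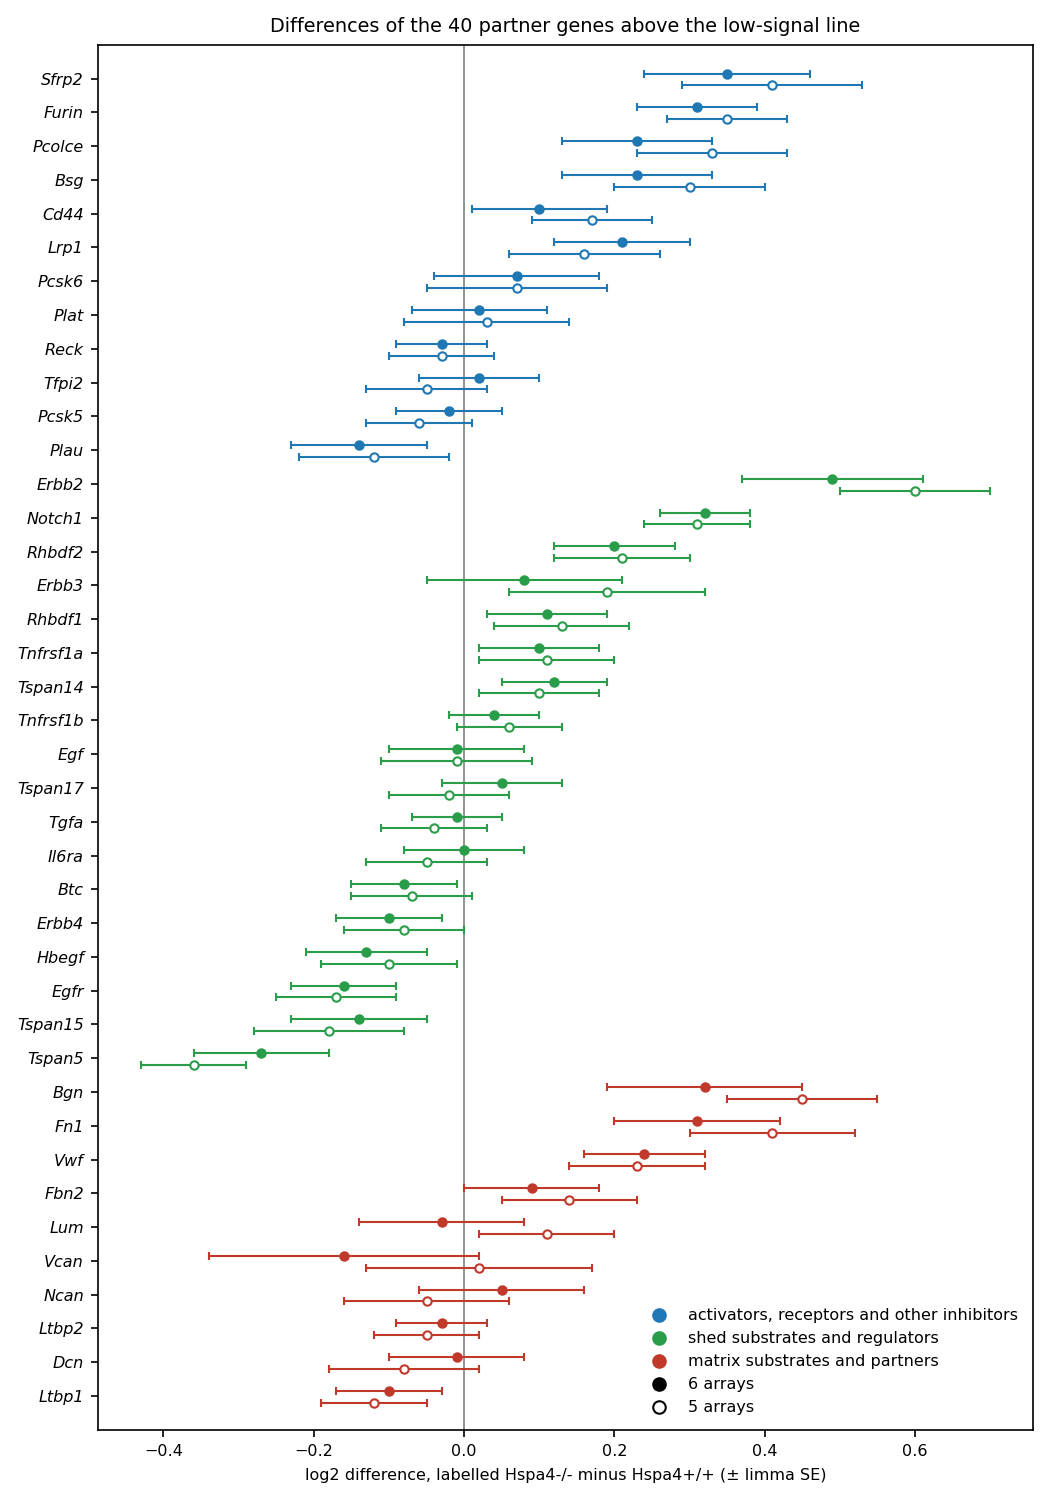
Log2 difference, labelled Hspa4-/- minus Hspa4+/+ (x axis, with limma SE bars), of the 40 partner genes above the low-signal line (y axis), coloured by role, for 6 arrays (filled) and the 5 arrays without Hspa4-/- replicate 1 (open). Erbb2 lies furthest to the right at 0.49 and 0.60 and Tspan5 furthest to the left at −0.27 and −0.36, and none passed the threshold.

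Of the 4 epicardial markers, which all lay above the line, 2 passed on 5 arrays and 0 on 6. Upk3b and Upk1b, genes of the mesothelial layer of the heart, fell by 0.78 and 0.90 on the log2 scale on the 5 arrays (limma, adjusted p = 0.0173 and 0.0330). On 6 arrays their differences were −0.56 and −0.73 and neither passed (limma, adjusted p = 0.269 and 0.210). Wt1 and Msln differed by −0.10 and −0.04 on 6 arrays and by −0.14 and −0.11 on 5, and passed in neither form. The summed level of the 4 markers was 26.41, 24.92 and 24.85 on the Hspa4-/- arrays, against 27.03, 26.35 and 27.07 in wild type. The part of this layer in the values of the proteases and inhibitors was not tested.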

How the data were processed

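Expression was measured in ventricle RNA of 6 mice, 3 labelled Hspa4-/- and 3 Hspa4+/+, on Affymetrix Mouse Gene 1.0 ST arrays. The deposited table holds 1 value per probe set and array on the log2 scale, and per the submitters' processing notes the authors used affy in R 2.13.0. The log base was read from the range of the values. How background was corrected and how probes were normalized and summarized is not stated in any source at hand. Array means differed by at most 0.01 (6.76 to 6.77). Array medians ran from 6.424 (wild-type replicate 2) to 6.476 (Hspa4-/- replicate 1). The SD over probe sets ran from 1.191 (wild-type replicate 3) to 1.268 (Hspa4-/- replicate 3). No spread of probes is kept, so precision rests on the number of arrays.

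Of 21225 probe sets, 20239 had 1 gene symbol in the array's annotation, 986 had none and 0 had several. The 2 groups were compared over all 20239 with limma 3.58.1 (lmFit and eBayes) in R 4.3.3, with Benjamini-Hochberg adjustment and a threshold of 0.05, first with 6 arrays and then with 5, leaving out Hspa4-/- replicate 1. The fit was tested on simulated data with the same spread for every gene and no array that went against its label. The planted differences were larger than that of any member in either form. The simulation therefore cannot tell how often differences of the size seen here are found. Tables and plots were made in Python 3.11.15 with pandas 2.3.3 and matplotlib 3.10.9. Low signal means a 6-array mean not above the 95th percentile of the means of 1098 odorant receptor genes.

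Genes named with full values were members above that line with an unadjusted p under 0.05 in either form, all Timp genes, the 2 members of each other subfamily with the highest mean, 18 members listed for their role, low-signal members with an unadjusted p under 0.05 on 5 arrays, and the 6 partner genes with the smallest p on 5 arrays. The members, lists, markers and the choice of the 5 arrays were made with earlier results of these data known. As alternatives, genes in the lowest 25% or 50% by mean were dropped, and further fits used quantile normalization, subtraction of array medians, array weights, the replicate number as a block and leaving out each array. Promoter sequences are those of RefSeq, GRCm38.p6, matched by symbol. Of the 55 partner genes listed, 51 were analysed here.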

Additional observations from a re-analysis of the deposited data

How the results depend on the processing

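The count of members called was 0 on 6 arrays and 0 on 5 as first fitted (limma). Array weights gave 1 on 6 arrays (Adamtsl4) and 2 on 5 (Adamtsl4 and Adamts5). Of all genes they called 115 (0.568%) on 6 arrays and 321 (1.59%) on 5, in place of 0 and 89. On 5 arrays, leaving out the lowest 25% or 50% of genes gave 1 in each case, Adamtsl4, with fewer genes tested. Of the genes tested, 156 (1.03%) and 167 (1.65%) were then called. At an unadjusted p under 0.05 on 6 arrays, array weights gave 8 members higher and 8 lower, in place of 5 and 4. The share of all genes at that level was then 18.1%, in place of 11.2%. Leaving out the lowest 50% of genes gave 2 lower on 6 arrays and 2 lower on 5, in place of 4 and 6, with 31 members tested. Counting both directions, 7 of these members reached that level on 6 arrays and 8 on 5, beside 15.7% and 20.2% of the genes tested. Leaving out each array in turn gave 0 to 0 called, 2 to 9 higher and 1 to 8 lower on 6 arrays. The share of all genes with an unadjusted p under 0.05 then ran from 6.17% to 14.9%. On 5 arrays, leaving out each wild-type array in turn gave 0 to 1 called, 4 to 9 higher and 3 to 9 lower. The same share of all genes ran from 10.4% to 20.4% there. The numbers called among all genes on 5 arrays moved from 89 to 2 without wild-type replicate 3 and to 875 without wild-type replicate 2. Quantile normalization and subtraction of array medians called 0 members in either form. The cause of these shifts was not tested beyond the numbers of genes given. The replicate number was also fitted as a replicate block, although deviations of same-numbered arrays correlated at −0.172, 0.0916 and −0.249, so the numbers are not taken to pair the samples. With the replicate block, 2 members had an unadjusted p under 0.05 and lower values on 6 arrays and 3 on 5. Counting both directions, 7 and 10 members reached that level, beside 9.93% and 10.6% of all genes. The block called 2 members on 5 arrays, Timp3 and Timp4 (limma, adjusted p = 0.0287 and 0.0313), with 134 of all genes called there in place of 89. Over the 14 genes named for their p, 304 of 312 alternative values kept direction and side of the threshold, 8 passed where the first fit did not, and 0 reversed. The 14 genes were chosen by p in these same arrays, so that count is a description and not support. The 5-array alternatives among them include fits with 1 Hspa4-/- array. Taking the median of all genes as the low-signal line left 31 members above it in place of 38. Low-signal genes left out by a filter have no value under it.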
